A study of Homo sapiens with 24 samples.

Results

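The expression of 36 genes of cholesterol and fatty acid synthesis was followed in 4 glioblastoma cell lines that carried either a lentivirus for WWOX, the WW domain-containing oxidoreductase, or the empty control virus. The members are a fixed set of gene symbols with no measured cut-off, and each was found by its Ensembl identifier among the 43037 genes of the table. They fall into 5 roles. There were 5 genes that control the SREBP transcription factors (SREBF1, SREBF2, SCAP, INSIG1, INSIG2) and 7 genes of the mevalonate steps (ACAT2, HMGCS1, MVK, PMVK, MVD, IDI1, FDPS). A further 11 genes act in the squalene and sterol steps (FDFT1, SQLE, LSS, CYP51A1, TM7SF2, MSMO1, NSDHL, HSD17B7, EBP, SC5D, DHCR7). Another 8 genes make and desaturate fatty acids (ACLY, ACSS2, ACACA, FASN, ELOVL6, SCD, FADS1, FADS2), and 5 genes move, export or store sterols (STARD4, ABCA1, ABCG1, MYLIP, SOAT1). Of the 36 members, 33 reached 5 CPM (tags per 1000000 tags) in at least 1 library and were tested, together with 12327 genes in all. ACAT2, EBP and STARD4 stayed below that level everywhere, with highest values of 4.09, 4.33 and 4.19 CPM.

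Cells make cholesterol from acetyl-CoA through mevalonate, isoprenoids, squalene and lanosterol, and they make fatty acids from citrate-derived acetyl-CoA through malonyl-CoA. Both routes are switched on together by the SREBP proteins, which SCAP carries out of the endoplasmic reticulum when membrane sterol is low and which the INSIG proteins hold back when sterol is high. When sterol accumulates, LXR receptors bound to oxysterols raise ABCA1 and ABCG1, which export cholesterol, and MYLIP, a ubiquitin ligase. In the brain, where circulating lipoproteins do not cross into the tissue, cholesterol is made locally, largely by glial cells.

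The lines were U87MG, T98G, U251MG and DBTRG-05MG, all established human glioblastoma lines. In each line the “WWOX” variant was stably transduced with the WWOX lentivirus, whose insert is driven by a CMV promoter and carries GFP and puromycin resistance, and the “Vec” variant was transduced with the Puro-Blank control lentivirus. Both variants were selected with puromycin, so the controls carry a virus and the selection too. The selection is described as clonal, without the number of clones kept. The 3 libraries of a variant are described as biological replicates, with no statement of separate transductions, so each p-value measures the spread between these libraries. The growth medium differed between lines (MEM for T98G, RPMI for DBTRG-05MG, EMEM for both U87MG and U251MG), so that line and medium cannot be told apart except between U87MG and U251MG. The 24 libraries were made by CAGE-Seq, which counts the capped 5′ ends of transcripts, and held between 10756072 and 16953689 tags on genes. A count of 0 allowed up to 3 tags, between 0.177 and 0.279 CPM by library, and this limit covers counting error only. In cultures, a change in the share of cells that transcribe a gene and a change per cell cannot be told apart.

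The 7 listed glial markers summed to between 737 and 5690 CPM, but in T98G and U87MG nearly all of this was CD44 (678 to 2087 CPM), which is not specific to glia. There SOX2, S100B, NES and OLIG2 each stayed at or below 3.57 CPM in every library, and VIM was between 13.5 and 71.7 CPM. GFAP reached 2655 ± 558 CPM (SD, n = 3) in U251MG “Vec” but only 2.01 ± 1.84 in DBTRG-05MG, 1.99 ± 0.359 in T98G and 4.34 ± 1.95 in U87MG “Vec”, so the defining astrocyte marker was nearly absent from 3 of the 4 lines. In U251MG “WWOX” it was at 114, 2506 and 3226 CPM. Markers of lipid-making adipocytes and hepatocytes summed to at most 2.39 CPM, and those of immune cells to at most 0.351 CPM. Epithelial markers summed to at most 2.33, endothelial to at most 13.3 and neuronal to between 2.57 and 109 CPM. SYT1 was above SNAP25 in every U251MG library, and SNAP25 above SYT1 in every U87MG and T98G library. Among markers that reached 5 CPM in a library, 6 marker and line pairs had libraries separated by variant. SYT1 was higher with WWOX in U87MG (3.05, 1.47 and 1.40 against 8.69, 4.95 and 4.24 CPM) and lower in T98G (1.41, 1.82 and 1.17 against 0.930, 0.148 and 0.396 CPM), S100B was lower in U87MG, CD44 lower in T98G and SOX2 higher in DBTRG-05MG, none of which passed in limma. CDH5, an endothelial cadherin, was separated in U251MG, at 3.81, 2.71 and 2.01 against 13.2, 4.43 and 7.17 CPM (log2FC 1.29 ± 0.24, limma adjusted p = 0.0126). Only “WWOX” replicates 1 and 3 of U251MG reached 5 CPM, so CDH5 was tested only through the group where it was highest. The test therefore cannot show whether CDH5 rose in U251MG. Of the markers under 5 CPM, CDH1 in DBTRG-05MG was at 0.0655, 0.193 and 0.132 CPM in “Vec” and 1.36, 2.33 and 0.822 CPM in “WWOX”. EPCAM there was at 0.131, 0.258 and 0.198 against 0.118, 0 and 0.0685 CPM. Both were in part under the limit of 3 tags, and neither was tested. The part of these markers in the changes of the lipid genes was not tested. WWOX itself had 40.1, 33.9 and 39.8 CPM in U87MG “Vec” and 66.0, 61.3 and 61.0 CPM in U87MG “WWOX”, which did not overlap. It had 20.4, 22.2 and 21.3 CPM in DBTRG-05MG “Vec” and 32.0, 28.2 and 28.0 CPM in “WWOX”, again without overlap. T98G overlapped, with 38.6, 57.2 and 34.3 CPM against 45.1, 61.8 and 60.0 CPM. U251MG overlapped as well, with 31.4, 36.8 and 32.2 CPM against 56.7, 17.4 and 38.01 CPM, and the library labelled U251MG “WWOX” replicate 2 was below every “Vec” library of its line. In U87MG the log2FC of WWOX reached 0.67 ± 0.22 (standard error, SE; limma adjusted p = 0.129), against 0.38 for T98G, 0.01 for U251MG and 0.40 for DBTRG-05MG, none past the threshold of 0.05. For U251MG it was 0.28 without “WWOX” replicate 2 and −0.29 without “WWOX” replicate 1. A transcript that starts in the vector would have its capped end outside the WWOX gene, and how much of these tags came from the transgene was not tested. The paper reports that Western blot of extracted protein established the efficiency of transduction, and these tags do not measure protein.

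Some libraries stood apart from their groups. The TMM factors that scale the libraries ran from 0.811 for U251MG “WWOX” replicate 2 to 1.21 for its replicate 3, so that CPM and scaled values can rank libraries differently in that group, and overlap below refers to scaled values. Over all 12327 genes, the root mean square deviation of a library from its group mean on the log2 scale was 0.637 and 0.675 for the libraries labelled U251MG “WWOX” replicates 1 and 2 and 0.457 for replicate 3, against 0.512 for T98G “Vec” replicate 2 and between 0.218 and 0.425 for the other 20 libraries. In T98G “WWOX” the whole transcriptome was not unusually spread (0.393, 0.318 and 0.242 for replicates 1 to 3), but the lipid genes were. Of the 33 members, 30 lay above their group mean in replicate 3 (median deviation 0.51) and 30 lay below it in replicate 2 (median −0.51), where 48.1% and 46.3% of all genes lay above. For changes given with a log2FC below, values without single libraries are added where they moved far or crossed the threshold.

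To show what the members share in sequence, the 160 bases before the annotated start of 4 genes are printed. Of these genes, 3 carry the changes described below, while SREBF2 heads the pathway. SREBF2 also holds the only sterol regulatory element match among the 31 members searched. The printed stretches are RefSeq windows on GRCh38.p14, given 5′ to 3′ on the strand of the gene. HMGCS1 is at chr5:43313413-43313572 (minus strand), MVD at chr16:88663092-88663251 (minus), SREBF2 at chr22:41832945-41833104 (plus) and ABCA1 at chr9:104928156-104928315 (minus). Capitals mark matches to the CCAAT box (CCAAT, or ATTGG where it lies on the other strand), the sterol regulatory element (TCACNCCAC) and the E-box (CACGTG).
HMGCS1: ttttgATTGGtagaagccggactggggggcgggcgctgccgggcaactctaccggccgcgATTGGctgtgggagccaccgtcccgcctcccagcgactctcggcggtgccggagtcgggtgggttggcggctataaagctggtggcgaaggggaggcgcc
MVD: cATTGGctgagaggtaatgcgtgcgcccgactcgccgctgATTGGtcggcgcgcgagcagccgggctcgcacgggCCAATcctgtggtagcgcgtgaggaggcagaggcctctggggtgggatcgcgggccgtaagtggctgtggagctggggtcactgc
SREBF2: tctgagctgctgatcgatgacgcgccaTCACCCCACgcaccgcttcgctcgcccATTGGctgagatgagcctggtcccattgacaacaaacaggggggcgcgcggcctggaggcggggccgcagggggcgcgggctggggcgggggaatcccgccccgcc
ABCA1: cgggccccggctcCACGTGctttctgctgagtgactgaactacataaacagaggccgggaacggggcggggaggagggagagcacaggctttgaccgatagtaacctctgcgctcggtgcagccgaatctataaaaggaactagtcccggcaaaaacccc
A window was listed for 31 of the 36 members, and ACAT2, FDFT1, SQLE, FASN and ABCG1 had none and were not searched. Within 250 bases before a start, on either strand, 22 of the 31 (71.0%) held a CCAAT box, against 37.0% of 27305 genes. The E-box was held by 4 of 31 (12.9%, against 7.73% of genes) and the sterol regulatory element letters by SREBF2 alone (3.23%, against 1.09%). HMGCS1 had 2 CCAAT boxes, MVD had 3 and ABCA1 had none. These are matches of letters and not measured binding sites.

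The first question was how the genes stood in the 4 lines before WWOX was added. In “Vec” libraries lipid synthesis genes were most often highest in T98G and most often lowest in DBTRG-05MG. T98G had the highest group mean of the 4 lines for 19 of the 33 members (57.6%, against 24.9% of all genes), and DBTRG-05MG the lowest for 14 (42.4%, against 24.8%). Each line was compared with the mean of the other 3 on the log2 scale. In T98G, 15 members were higher and 2 lower, where 20.3% and 20.4% of all genes tested were. The higher ones covered the mevalonate steps (MVD 2.11, HMGCS1 1.41, FDPS 0.95), the sterol steps (MSMO1 1.08, SQLE 0.98, LSS 0.85) and the fatty acid desaturases (FADS2 3.26, SCD 1.67, FADS1 1.26), all given as log2 differences of levels. In DBTRG-05MG, 5 members were higher and 12 lower (22.2% and 20.2% of all genes), the lower ones including INSIG1 (−1.81), MVD (−1.71), ACLY (−1.52), SQLE (−1.49) and FASN (−0.92). U87MG had 4 higher and 6 lower (20.8% and 24.4% of all genes), and U251MG had 2 higher and 6 lower (16.1% and 18.7%).

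The same comparison in the “WWOX” libraries, which are separate libraries of the same lines, gave 23 calls in U87MG (18 higher, 5 lower; 21.2% and 24.3% of all genes). It gave 21 in T98G (17 higher, 4 lower; 20.7% and 23.7%), 14 in U251MG (1 higher, 13 lower; 20.2% and 20.6%) and 21 in DBTRG-05MG (3 higher, 18 lower; 24.5% and 21.3%). Of the 52 calls in “Vec” libraries, 46 (88.5%) were also made in “WWOX” libraries, where over all genes 78.2% were. These 46 are 58.2% of the 79 calls in “WWOX” libraries (72.2% over all genes), and none was in the opposite direction. The line with the highest mean changed: among “WWOX” libraries U87MG led for 17 of 33 members (25.9% of all genes) and T98G for 13 (24.4%), while among “Vec” libraries U87MG led for 8 (27.2%). The calls for U251MG in “Vec” libraries fell from 8 to 3 without replicate 1 and to 4 without replicate 3. Those for DBTRG-05MG fell from 17 to 9 without replicate 1 or 3. Shares of all genes called with a library left out are not given here, so whether these falls are particular to the members cannot be read.

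**Figure D1:**
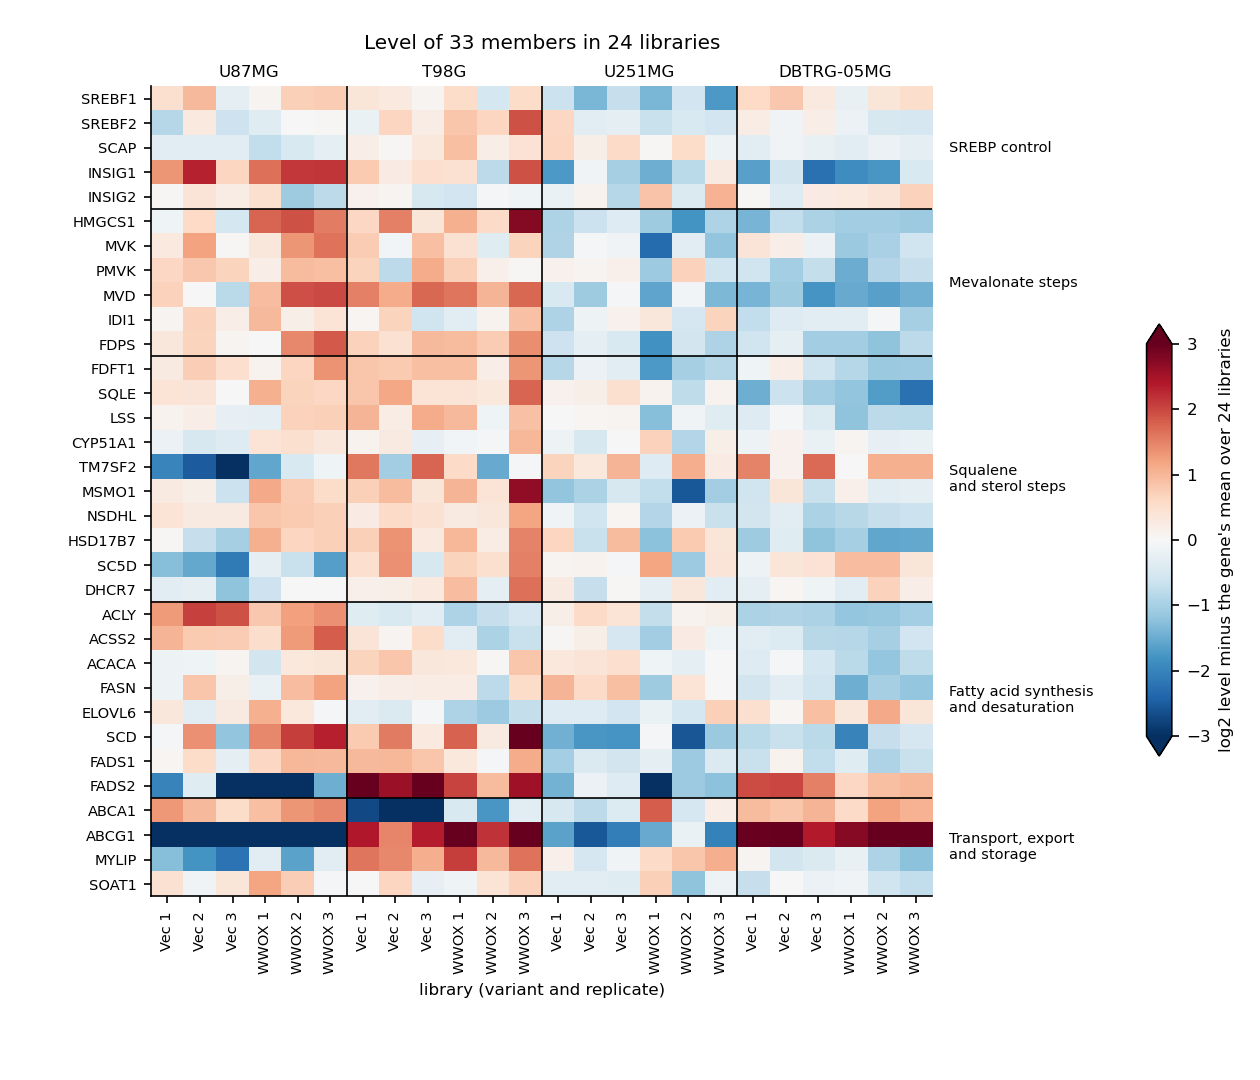
Heat map of 33 members (rows, by role) in 24 libraries (columns, by line, variant and replicate); colour is the log2 level, log2(scaled CPM + 0.5), minus the mean of the gene over all libraries, cut at 3 either way. T98G and U87MG “WWOX” are mostly red, DBTRG-05MG and U251MG mostly blue, while ABCG1, FADS2 and TM7SF2 run against the rest in U87MG.

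The 6 members with the widest range of “Vec” means were led by sterol exporters and a desaturase. ABCG1, a sterol exporter, was at 62.3, 73.3 and 45.2 CPM in DBTRG-05MG and 36.6, 21.2 and 32.1 CPM in T98G, but at 2.03, 0.875 and 1.34 CPM in U251MG. In U87MG it was at 0, 0.0773 and 0 CPM, under the limit of 3 tags. FADS2, the delta-6 desaturase of polyunsaturated fatty acid synthesis, stood at 281, 196 and 212 CPM in T98G and at 128, 130 and 105 CPM in DBTRG-05MG. It had 11.4, 29.8 and 24.4 CPM in U251MG and 6.53, 20.5 and 1.82 CPM in U87MG, so U87MG spread widely within the group while staying under every T98G and DBTRG-05MG library. The start of FADS2 lies inside the FEN1 gene on the same strand, and tags may be assigned to either.

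ABCA1, the other main exporter, was high in DBTRG-05MG like ABCG1, but lowest in T98G and high in U87MG. It was at 131, 99.8 and 84.5 CPM in U87MG, 120, 107 and 138 CPM in DBTRG-05MG, 42.5, 37.2 and 45.9 CPM in U251MG and only 7.87, 5.39 and 4.52 CPM in T98G. U87MG and DBTRG-05MG overlapped, and U251MG and T98G were each separate. TM7SF2, a sterol reductase of the late pathway, was at 7.53, 4.87 and 3.65 CPM in U87MG and between 17.1 and 132 CPM in every other “Vec” library, where the other 3 lines overlapped. Its start lies inside VPS51 on the same strand.

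MYLIP was highest in T98G (8.79, 8.77 and 5.53 CPM) and lowest in U87MG (0.781, 0.386 and 0.210 CPM), and the values of U251MG (3.24, 1.99 and 2.68 CPM) and DBTRG-05MG (3.21, 1.803 and 2.31 CPM) between them overlapped. INSIG1, the sterol-regulated brake on SREBP, ran from U87MG (120, 230 and 82.8 CPM) through T98G (85.1, 65.5 and 63.7 CPM) to U251MG (15.97, 53.9 and 27.7 CPM) and DBTRG-05MG (18.1, 37.1 and 12.7 CPM). The first 2 of these lines overlapped each other, as did the last 2, and the pairs did not. At the other end of the range, CYP51A1 differed by 0.39 between its highest and lowest “Vec” mean, INSIG2 by 0.54 and SOAT1 by 0.59 on the log2 scale.

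The main question was what WWOX changed. In U87MG 2 genes of the mevalonate steps rose, HMGCS1 and MVD, and 28 of 33 members had a positive log2FC, with a median of 0.39 against 0.00 over all genes (49.0% positive). In T98G 1 member, ABCA1, rose, and the members' median was 0.03 (−0.04 over all genes), or −0.17 without “WWOX” replicate 3. No member passed in U251MG or DBTRG-05MG, where the medians were −0.35 and −0.23 (0.01 over all genes in both). With single libraries left out, the U251MG median ran from −0.48 to −0.21 (without “WWOX” replicate 2 or 1). That of DBTRG-05MG ran from −0.29 to −0.13 (without “Vec” replicate 3 or “WWOX” replicate 1). The 2 members called in U87MG compare with 3.24% of all genes tested, the 1 in T98G with 1.13%, and the 0 in U251MG and DBTRG-05MG with 0.316% and 1.01%. At an unadjusted p under 0.05 in limma, 9 members passed for U87MG (11.5% of all genes), 4 for T98G (11.6%), 7 for U251MG (11.5%) and 3 for DBTRG-05MG (7.63%). EdgeR and DESeq2 also called 0 in U251MG (0.114% and 1.31% of all genes) and DBTRG-05MG (0.398% and 1.05%). In U87MG edgeR called the same 2 members (2.66% of all genes) and DESeq2 added TM7SF2 (3.92%). In the mean of the 4 lines 1 member passed, ABCA1 (1.77% of all genes).

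Separation was also counted, a member being separated where all 3 scaled values of a variant lay beyond those of the other. In U87MG, 10 of 33 were separated, all 10 higher with WWOX, while over all genes 8.18% were separated and higher and 8.96% separated and lower. In T98G 2 were higher and 4 lower (7.17% and 9.07% of all genes), in U251MG 1 higher and 6 lower (5.64% and 4.75%), and in DBTRG-05MG 1 higher and 8 lower (9.76% and 10%). The 2 higher in T98G were ABCA1 and SREBF2, and SREBF2 reached 5 CPM only in T98G “WWOX” replicate 3. On unscaled CPM the calls differ for SREBF2 in T98G and DBTRG-05MG and for HMGCS1 and SQLE in U251MG, which overlap, and for SCAP in T98G and for SCAP and FDPS in U251MG, which separate. All 4 “Vec” versus “WWOX” comparisons rest on their own libraries, but they share the fit.

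**Figure D2:**
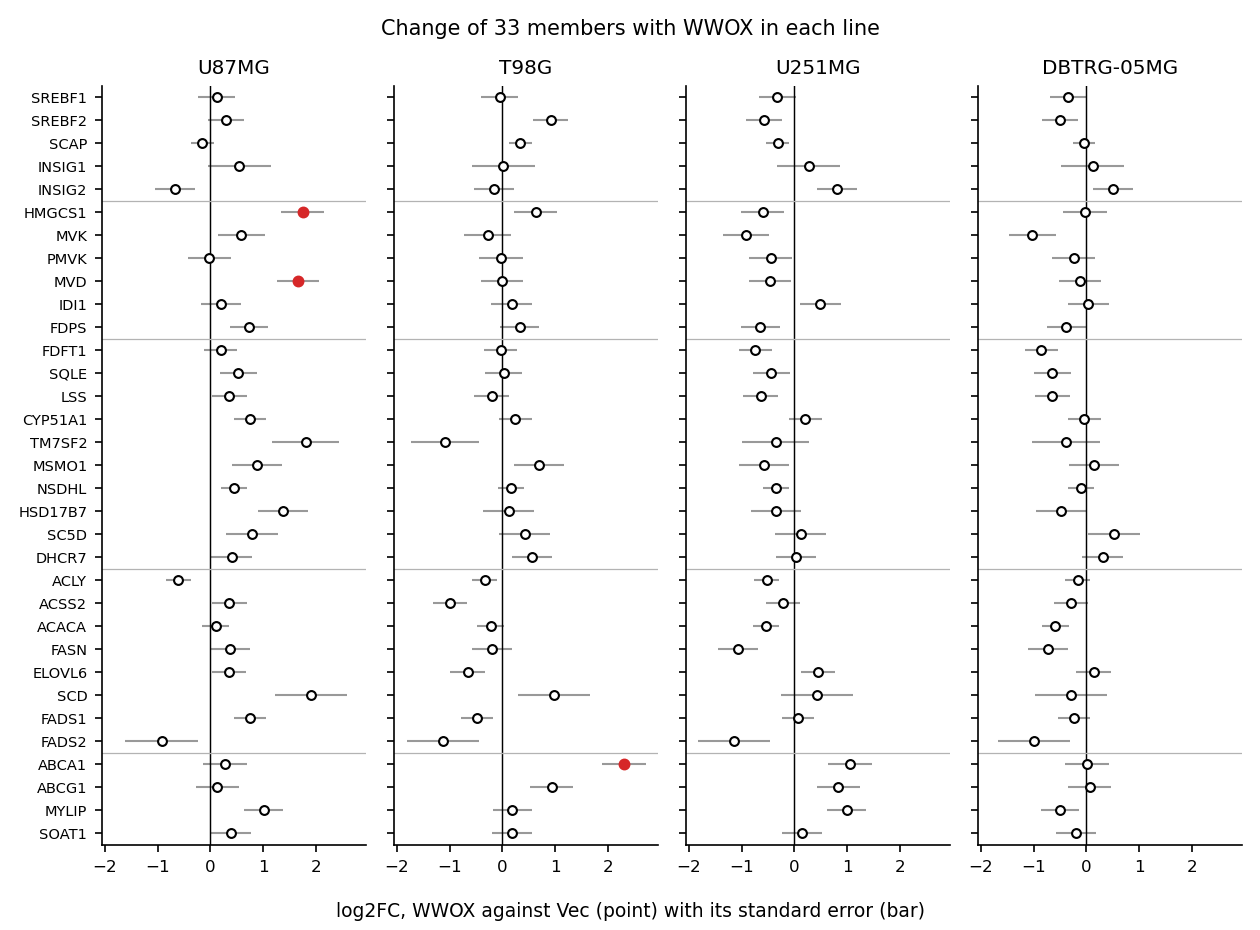
log2FC of “WWOX” against “Vec” (horizontal axis, points, with SE as bars) for 33 members (rows, by role) in the 4 lines (panels); red points have an adjusted p under 0.05. HMGCS1 and MVD in U87MG and ABCA1 in T98G are red, and the points of U87MG lie mostly to the right of 0 while those of DBTRG-05MG lie mostly to the left.

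Among the SREBP control genes, none of the 5 passed in any line or in the mean. SREBF1, which encodes the SREBP that acts mainly on fatty acid synthesis, was at 88.3, 118 and 57.2 CPM in U87MG “Vec” and 74.4, 107 and 107 CPM in “WWOX”. In T98G it was at 83.7, 88.5 and 62.2 against 91.4, 45.1 and 99.1 CPM, and in U251MG at 45.1, 29.4 and 45.0 against 31.5, 38.1 and 25.0 CPM. In DBTRG-05MG it was at 112, 126 and 100.2 against 71.3, 103 and 105 CPM. The variants overlapped in all 4 lines.

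SREBF2, which encodes the SREBP of sterol synthesis, gave few tags. It had 0.923, 2.47 and 1.26 CPM in U87MG “Vec” and 1.65, 2.10 and 2.12 CPM in “WWOX”, which overlapped. In T98G it had 1.76, 3.95 and 2.26 CPM against 3.91, 3.56 and 9.51 CPM, which were separate after scaling, with the highest value in “WWOX” replicate 3 (log2FC 0.91 ± 0.34, limma adjusted p = 0.257). That library alone reached 5 CPM, so SREBF2 was tested only through the group where it was highest. The test therefore cannot show whether SREBF2 rose in T98G. In U251MG the values were 3.81, 1.83 and 1.88 against 1.44, 1.22 and 1.62 CPM, and in DBTRG-05MG 2.88, 2.13 and 3.10 against 2.30, 1.69 and 1.51 CPM, lower in “WWOX” without overlap on the scaled values in both. The start of SREBF2 lies inside SREBF2-AS1 on the opposite strand. Of 5993 protein-coding genes whose start lies inside another annotated gene, 52.4% were tested, with a median of 2.19 CPM, against 61.0% of 13431 others, with a median of 5.67 CPM. The starts of ACAT2 and STARD4, 2 of the 3 members not tested, also lie inside another gene, and whether tags were lost to it was not tested.

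SCAP, the sterol-sensing escort of SREBP, was the steadiest member, with a residual SD of 0.227 on the log2 scale (7.34% of genes had a smaller one). It ran from 40.0 to 44.7 CPM in U87MG “Vec” and from 34.8 to 43.0 in “WWOX”, from 60.1 to 61.1 and from 62.3 to 96.0 in T98G, from 71.4 to 91.1 and from 62.6 to 68.9 in U251MG, and from 48.7 to 57.4 and from 49.2 to 58.4 in DBTRG-05MG. The CPM of T98G and U251MG were separate, but the scaled values overlapped in every line. INSIG1 had 171, 216 and 216 CPM in U87MG “WWOX”, 64.7, 28.8 and 194 CPM in T98G, 22.4, 24.5 and 77.3 CPM in U251MG and 17.1, 17.9 and 40.5 CPM in DBTRG-05MG, which overlapped the “Vec” values given above in all 4 lines. INSIG2, the second INSIG, was separated only in DBTRG-05MG, at 27.2, 19.4 and 34.6 CPM in “Vec” and 36.8, 38.04 and 42.5 CPM in “WWOX” (log2FC 0.50 ± 0.38, adjusted p = 0.896, or 0.32 without “Vec” replicate 2). In U87MG it was at 23.2, 28.4 and 28.7 against 35.4, 10.8 and 13.0 CPM, in T98G at 25.3, 27.3 and 14.8 against 14.8, 22.5 and 21.9 CPM, and in U251MG at 22.1, 29.4 and 14.1 against 53.2, 14.95 and 63.1 CPM. The log2FC in U251MG was 0.81 (adjusted p = 0.418) and 1.25 without “WWOX” replicate 2 (0.0469). Over 37 alternatives it ran from 0.53 to 1.37.

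The mevalonate steps held both calls of U87MG. HMGCS1 encodes the cytosolic HMG-CoA synthase, which makes the substrate of HMG-CoA reductase (GRCh38 chr5:43287470-43313512, minus strand). It had 24.9, 39.5 and 20.3 CPM in U87MG “Vec” and 103, 106 and 79.4 CPM in U87MG “WWOX”. Every “WWOX” library was above every “Vec” library, and the log2FC was 1.74 ± 0.41 (adjusted p = 0.0169). MVD encodes the decarboxylase that closes the mevalonate steps and yields the first isoprenoid (chr16:88651935-88663161, minus strand). It had 56.8, 33.8 and 21.9 CPM in “Vec” and 75.4, 140.5 and 141 CPM in “WWOX”, again without overlap, and a log2FC of 1.65 ± 0.40 (adjusted p = 0.0184).

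Neither gene passed in another line. In T98G, HMGCS1 had 43.2, 90.2 and 32.9 CPM against 56.1, 42.3 and 200 CPM, which overlapped and whose log2FC of 0.63 became −0.02 without “WWOX” replicate 3 and 1.07 without replicate 2. In U251MG it was lower without overlap on the scaled values, at 15.9, 20.8 and 23.7 against 16.6, 6.79 and 18.7 CPM (log2FC −0.60 ± 0.41, adjusted p = 0.631, or −0.35 without “WWOX” replicate 2), and in DBTRG-05MG it stood at 11.9, 18.5 and 17.9 against 17.1, 16.5 and 14.6 CPM. MVD had 104, 88.8 and 110 against 107, 74.4 and 126 CPM in T98G, 28.9, 20.1 and 39.4 against 15.02, 30.3 and 18.3 CPM in U251MG and 15.4, 19.2 and 13.0 against 15.98, 14.2 and 14.7 CPM in DBTRG-05MG, which overlapped in every case. Both U87MG calls were lost with a separate model for the line (adjusted p = 0.0714 for HMGCS1 and 0.225 for MVD) and with the replicate number as a block (0.0589 and 0.0875), and with some single libraries left out. HMGCS1 lost the threshold without “Vec” replicate 3 (adjusted p = 0.129) or “WWOX” replicate 1 (0.0598) or 2 (0.0779), and MVD without “Vec” replicate 2 (0.0658) or 3 (0.172) or “WWOX” replicate 2 (0.101) or 3 (0.0961).

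Of the other 4 mevalonate genes tested, none passed in a line. MVK, mevalonate kinase, was separated in DBTRG-05MG, with 27.0, 22.9 and 20.02 CPM in “Vec” and 10.4, 11.02 and 13.3 CPM in “WWOX” (log2FC −1.03 ± 0.44, adjusted p = 0.539). It overlapped in U87MG (21.4, 39.0 and 19.5 against 24.8, 45.5 and 55.4 CPM), in T98G (30.7, 18.9 and 30.9 against 23.8, 14.0 and 29.8 CPM) and in U251MG (10.3, 20.4 and 18.6 against 4.12, 12.5 and 9.94 CPM). Over the 6 genes of the role the medians of log2FC were 0.66 (U87MG), 0.09 (T98G, or −0.08 without “WWOX” replicate 3), −0.54 (U251MG) and −0.18 (DBTRG-05MG). With single libraries left out, the median ran from 0.34 to 1.13 in U87MG (without “WWOX” replicate 3 or 1). It ran from −0.94 to −0.23 in U251MG (without “WWOX” replicate 2 or 1). In DBTRG-05MG it ran from −0.28 without “WWOX” replicate 3 to −0.07, with 3 of 6 positive, without “Vec” replicate 2.

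In the squalene and sterol steps, all 10 genes tested had a positive log2FC in U87MG, between 0.19 and 1.80 with a median of 0.64, and none passed. The libraries were separated for 6 of them (8.18% of all genes were separated and higher), SQLE, CYP51A1, TM7SF2, MSMO1, NSDHL and HSD17B7. TM7SF2 had the largest of these changes, from 7.53, 4.87 and 3.65 CPM to 11.4, 23.4 and 28.5 CPM (log2FC 1.80 ± 0.64, adjusted p = 0.169). Its “WWOX” values in U87MG still lay below the “Vec” values of DBTRG-05MG and U251MG. CYP51A1, lanosterol demethylase, went from 50.9, 39.6 and 47.9 CPM to 86.4, 82.7 and 72.8 CPM, and MSMO1, the methylsterol oxidase of the next steps, from 68.5, 61.0 and 39.7 CPM to 140, 99.2 and 83.3 CPM.

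In the other lines the role had 7 positive values of 10 in T98G (median 0.14, or −0.15 with 3 positive without “WWOX” replicate 3 and −0.01 with 5 positive without “Vec” replicate 3), 3 in U251MG (median −0.36) and 3 in DBTRG-05MG (median −0.25). Without “WWOX” replicate 2 the T98G median was 0.35, with 9 positive. The U251MG median ran from −0.54 to −0.195 (without “Vec” replicate 2 or 3). That of DBTRG-05MG ran from −0.26 without “WWOX” replicate 3 to −0.10, with 5 positive, without “Vec” replicate 2. LSS, which closes the ring of lanosterol, was lower without overlap in U251MG, at 75.5, 84.8 and 82.2 CPM against 35.5, 55.9 and 69.0 CPM (log2FC −0.64 ± 0.33, adjusted p = 0.473, or −0.29 without “WWOX” replicate 1 and −0.89 without replicate 2), and in DBTRG-05MG, at 60.2, 73.3 and 65.3 CPM against 37.99, 49.6 and 43.8 CPM. In U87MG it was at 72.2, 73.0 and 61.0 against 61.6, 112 and 110 CPM, and in T98G at 140, 89.5 and 134 against 130, 63.5 and 131 CPM, both overlapping. TM7SF2 overlapped in T98G (95.5, 17.1 and 97.3 against 45.5, 10.98 and 32.1 CPM), in U251MG (55.9, 46.9 and 73.9 against 30.6, 60.2 and 49.6 CPM) and in DBTRG-05MG (104, 38.8 and 132 against 41.5, 84.0 and 76.2 CPM).

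**Figure D3:**
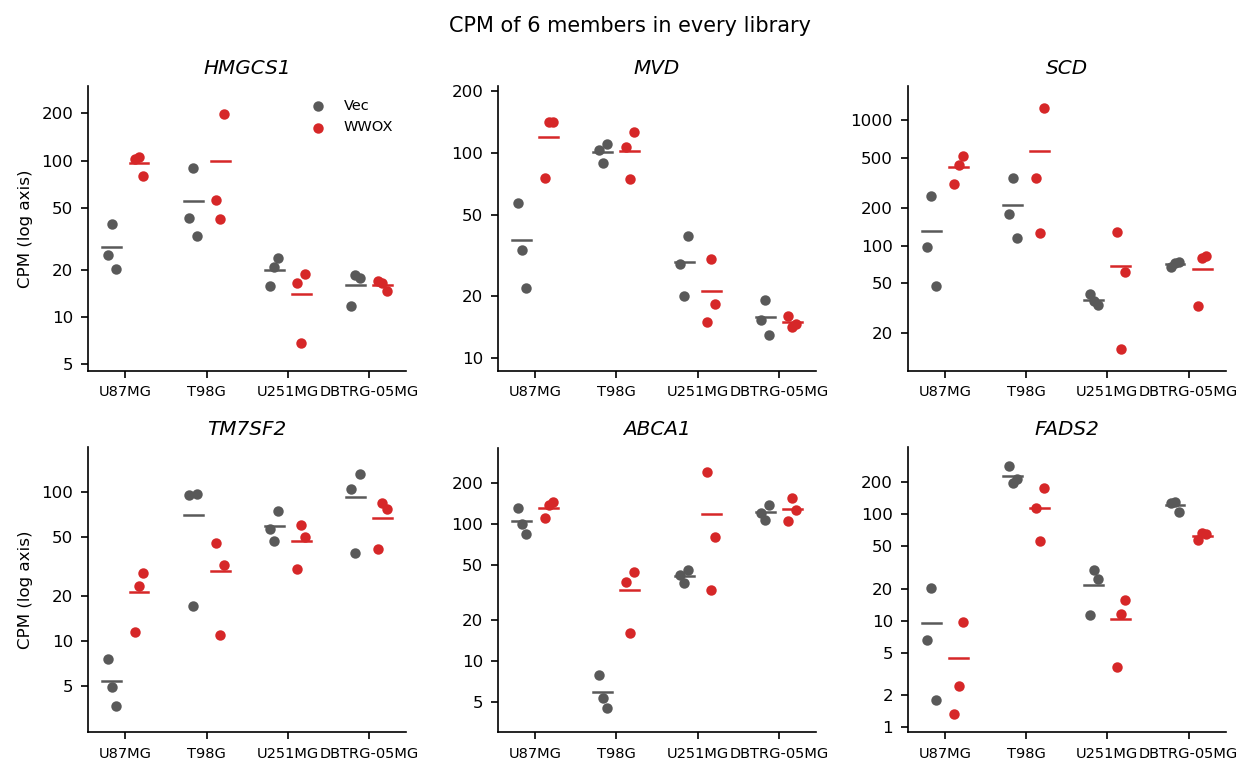
CPM (log axis) of 6 members in each library, grey for “Vec” and red for “WWOX”, with a bar at the mean of the 3 libraries of a group. HMGCS1, MVD, SCD and TM7SF2 separate in U87MG, ABCA1 in T98G, and FADS2 in T98G and DBTRG-05MG, and the red points of T98G and U251MG spread widely for SCD and ABCA1.

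None of the 8 genes of fatty acid synthesis and desaturation passed in a line, with 3, 1, 3 and 1 at an unadjusted p under 0.05 for U87MG, T98G, U251MG and DBTRG-05MG (11.5%, 11.6%, 11.5% and 7.63% of all genes). Separated libraries were higher with WWOX for 2 of them in U87MG (8.18% of all genes), and lower for 4 in both T98G and DBTRG-05MG (9.07% and 10%) and for 2 in U251MG (4.75%). In U87MG SCD, the delta-9 desaturase that makes oleate, had the largest log2FC of the members in that line, from 96.8, 250 and 47.9 CPM to 308, 439 and 511 CPM. The groups did not overlap, but the “Vec” libraries spread widely, and the log2FC of 1.91 ± 0.68 did not pass (adjusted p = 0.178). In T98G SCD spread from 125 to 1238 CPM within “WWOX” (341, 125 and 1238, against 177, 344 and 115 in “Vec”), and in U251MG from 15.1 to 129 CPM (129, 15.1 and 61.9, against 41.2, 36.4 and 33.7). In DBTRG-05MG it was at 67.4, 72.4 and 74.0 CPM against 33.03, 79.8 and 82.2 CPM.

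For FADS2 the log2FC was negative throughout, with −0.93 for U87MG, −1.12 for T98G, −1.14 for U251MG and −0.99 for DBTRG-05MG, and an SE of 0.69 each time. With single libraries left out, FADS2 ran from −1.78 to −0.09 in U87MG (without “Vec” replicate 3 or 2), from −1.48 to −0.67 in T98G (without “WWOX” replicate 3 or 2), from −1.52 to −0.49 in U251MG (without “Vec” replicate 1 or “WWOX” replicate 1) and from −1.15 to −0.88 in DBTRG-05MG. The mean of the 4 lines was −1.05 ± 0.34 and did not pass (adjusted p = 0.14), except without U87MG “Vec” replicate 3 (−1.26, adjusted p = 0.0423). The libraries were separated in T98G, where 281, 196 and 212 CPM in “Vec” stood against 114, 55.7 and 176 CPM in “WWOX”, and in DBTRG-05MG, where 128, 130 and 105 CPM stood against 56.9, 66.9 and 64.5 CPM. They overlapped in U87MG (6.53, 20.5 and 1.82 against 1.35, 2.44 and 9.74 CPM) and in U251MG (11.4, 29.8 and 24.4 against 3.70, 11.6 and 15.6 CPM). FADS2 also had the highest residual SD of the members, 0.952, a value under which 98.3% of genes lay.

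FASN, fatty acid synthase, was lower without overlap in U251MG, at 186, 148 and 176 CPM in “Vec” and 49.9, 97.3 and 108 CPM in “WWOX” (log2FC −1.06 ± 0.38, adjusted p = 0.248). This became −1.39 without “WWOX” replicate 2 (adjusted p = 0.0481) and −0.64 without “WWOX” replicate 1 (0.524). It was lower without overlap in DBTRG-05MG too, at 65.5, 73.6 and 69.5 against 38.3, 52.0 and 41.6 CPM. In U87MG (72.8, 138 and 99.5 against 79.7, 159 and 188 CPM) and T98G (90.5, 108 and 88.1 against 92.6, 48.3 and 127 CPM) it overlapped. ACSS2, which makes acetyl-CoA from acetate, was separated in T98G, at 14.2, 12.8 and 14.6 against 8.18, 5.42 and 6.87 CPM (log2FC −0.99 ± 0.32, adjusted p = 0.162), and overlapped in U87MG (21.5, 17.5 and 19.6 against 17.01, 27.1 and 38.1 CPM), U251MG (12.2, 14.5 and 8.44 against 6.31, 11.2 and 12.7 CPM) and DBTRG-05MG (9.69, 8.89 and 7.44 against 7.37, 6.48 and 7.95 CPM). Over the role the medians of log2FC were 0.36 (U87MG), −0.41 (T98G), −0.37 (U251MG) and −0.29 (DBTRG-05MG), and 7 of its 8 genes were negative in T98G and in DBTRG-05MG. With single libraries left out, the median ran from 0.07 to 0.56 in U87MG (without “WWOX” replicate 3 or 1). It ran from −0.61 to −0.29 in T98G (without “WWOX” replicate 3 or 2) and from −0.50 to −0.21 in U251MG (without “WWOX” replicate 2 or 1). In DBTRG-05MG it ran from −0.49 to −0.24 (without “WWOX” replicate 3 or “Vec” replicate 2).

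Transport, export and storage held the change of T98G. ABCA1 (chr9:104781006-104928155, minus strand) went from 7.87, 5.39 and 4.52 CPM in T98G “Vec” to 37.8, 16.1 and 44.8 CPM in “WWOX”. All 3 “WWOX” libraries were above all 3 “Vec” libraries, and the log2FC was 2.30 ± 0.42 (adjusted p = 0.00587). With a separate model for the line the call was lost (adjusted p = 0.189). The log2FC was 2.04 without “WWOX” replicate 3 (adjusted p = 0.0677). It was 2.68 with “WWOX” replicates 2 and 3 both left out, which leaves 1 library in that group. The raised level of 32.9 ± 14.97 CPM remained under the “Vec” means of the other lines, the lowest of which was 41.8 ± 4.40 CPM in U251MG. In U251MG ABCA1 had 42.5, 37.2 and 45.9 CPM against 242, 33.2 and 81.0 CPM, which overlapped only through the library labelled “WWOX” replicate 2. The log2FC of 1.05 ± 0.42 (adjusted p = 0.325) became 1.54 without it (0.0394) and 0.40 without “WWOX” replicate 1 (0.723). Without both, which leaves 1 library, it was 0.75. U87MG, with 110, 137 and 145 CPM in “WWOX”, and DBTRG-05MG, with 105, 156 and 126 CPM, overlapped their “Vec” libraries. The mean log2FC of the 4 lines was 0.91 ± 0.21 (adjusted p = 0.0234), a call that was lost without DBTRG-05MG “WWOX” replicate 2 (0.88, adjusted p = 0.0512), T98G “WWOX” replicate 3 (0.85, 0.0578) or U87MG “Vec” replicate 3 (0.86, 0.0545).

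ABCG1, which LXR is known to raise together with ABCA1, had 74.7, 31.4 and 75.9 CPM in T98G “WWOX” against 36.6, 21.2 and 32.1 CPM in “Vec”, which overlapped. It had 2.54, 4.94 and 1.62 CPM in U251MG “WWOX” and 59.7, 70.0 and 63.3 CPM in DBTRG-05MG “WWOX”, both overlapping “Vec”, and 0.0612, 0 and 0.169 CPM in U87MG “WWOX”, under the limit of 3 tags. MYLIP was separated in U251MG, at 3.24, 1.99 and 2.68 CPM against 5.21, 4.36 and 7.91 CPM (log2FC 0.99 ± 0.36, adjusted p = 0.273). It overlapped in U87MG, with 2.14, 0.543 and 1.95 CPM in “WWOX”, in T98G, with 11.9, 5.64 and 9.44 CPM, and in DBTRG-05MG, with 2.77, 1.43 and 0.960 CPM.

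Whether a line responded differently from the others was tested on the difference of its log2FC from the mean of the other 3. In U87MG 1 member passed, MVD, with a difference of 1.85 ± 0.46 (adjusted p = 0.0310), against 2.37% of all genes. The difference of HMGCS1 was 1.75 ± 0.48 (adjusted p = 0.0568) and that of TM7SF2 2.41 ± 0.74 (0.107). HMGCS1 passed without T98G “WWOX” replicate 3 (1.96, adjusted p = 0.00307), T98G “Vec” replicate 3 (1.83, 0.0499) or U87MG “Vec” replicate 2 (2.06, 0.0407). Without T98G “WWOX” replicates 2 and 3, which leaves 1 library in that group, the differences were 1.88 for HMGCS1 and 1.80 for MVD. The MVD call was lost without U87MG “Vec” replicate 2 (1.87, adjusted p = 0.0832) or 3 (1.47, 0.169), “WWOX” replicate 2 (1.69, 0.128) or 3 (1.67, 0.113), with the replicate block (0.126) and with edgeR (0.0538). DESeq2 called HMGCS1, MVD and TM7SF2 (2.81% of all genes). No member passed for T98G, U251MG or DBTRG-05MG (1.55%, 0.446% and 0.990% of all genes), where unadjusted p-values in limma were under 0.05 for 4, 4 and 2 members (12.8%, 11.4% and 7.14% of all genes) and edgeR called 0. EdgeR called 0.827%, 0.0973% and 0.235% of all genes in these lines, in the same order. DESeq2 called 0 in U251MG and DBTRG-05MG (1.4% and 0.99% of all genes). In T98G ABCA1 (1.85 ± 0.49, adjusted p = 0.0583) passed with DESeq2 (2.77% of all genes), with a pseudocount of 0.1 (1.92, adjusted p = 0.0465), without T98G “WWOX” replicate 2 (2.30, 0.0233), and without U251MG “WWOX” replicate 1 (2.07, 0.00357) or 2 (1.69, 0.0402). Without both of the latter, which leaves 1 library in that group, the ABCA1 difference was 1.95. The members' median difference was 0.55 in U87MG, with 27 of 33 positive (51.4% of all genes), and 0.12 in T98G, with 20 positive (45.5%). It was −0.36 in U251MG, with 10 positive (52.7%), and −0.42 in DBTRG-05MG, with 5 positive (52.8%). The all-gene medians lay between −0.06 and 0.03, and the 4 differences share their libraries.

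Among the 24 pairs of libraries within a group, replicates 2 and 3 of T98G “WWOX” had the largest median difference of the members. Replicate 3 exceeded replicate 2 for 31 of 33 members, by a median of 1.03 on the log2 scale, and 19 members differed by 1 or more, while over all genes the median was 0.00 and 2.36% differed by 1 or more either way. HMGCS1 had 200 CPM against 42.3, MSMO1 387 against 77.9, INSIG1 194 against 28.8, and SCD 1238 against 125. Replicate 3 was the highest of the 3 libraries for 24 members (25.6% of all genes) and replicate 2 the lowest for 26 (34.4%). The members' median log2FC in T98G was 0.28 without replicate 2 and −0.17 without replicate 3. In U87MG “Vec”, replicate 3 was the lowest for 19 members (28.0% of all genes), and replicate 2 exceeded it for 28 of 33, by a median of 0.45. Other pairs were as far apart as those U87MG libraries or further, but less than T98G “WWOX” replicates 2 and 3. In T98G “WWOX” the medians were 0.62 for replicate 1 over 2 (11 members by 1 or more, and 12.4% of all genes) and 0.45 for replicate 3 over 1 (8 members, and 7.73%). They were 0.61 for U251MG “WWOX” replicate 2 over 1 (18 members, and 43%) and 0.49 for U87MG “WWOX” replicate 3 over 1 (12 members, and 13.2%). In DBTRG-05MG “Vec”, replicate 2 was the highest for 22 of 33 (35.9% of all genes).

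**Figure D4:**
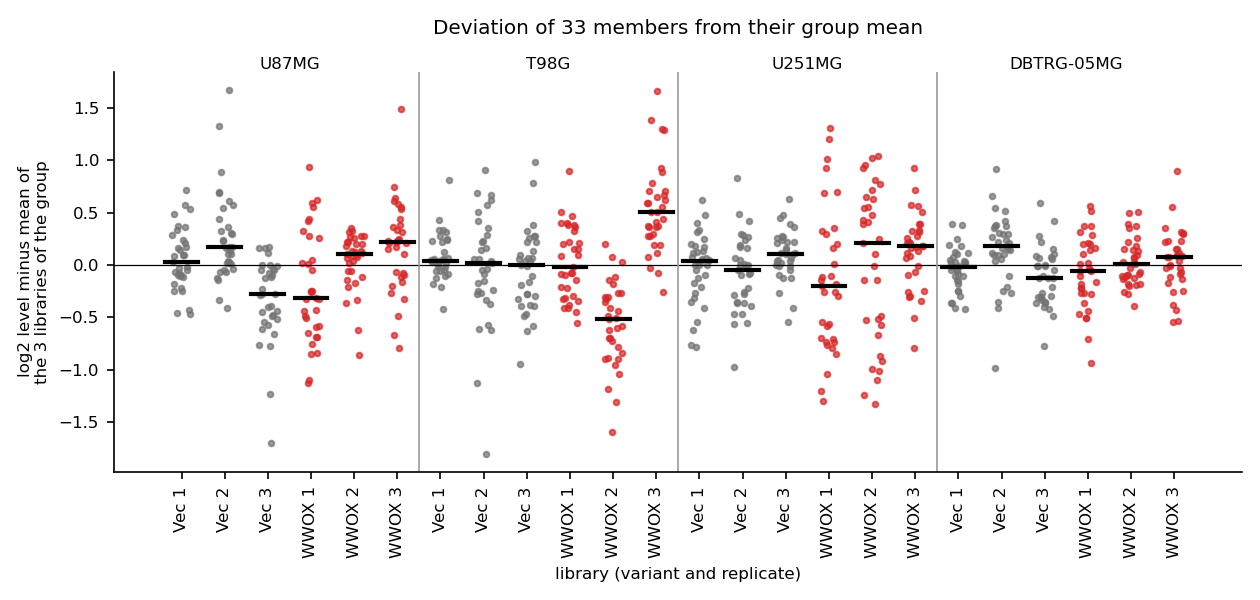
Deviation of the 33 members (points) from the mean of the 3 libraries of their group on the log2 scale, for each of 24 libraries, grey for “Vec” and red for “WWOX”; black bars are medians. T98G “WWOX” replicates 2 and 3 have medians of −0.51 and 0.51, and the points of U251MG “WWOX” replicates 1 and 2 spread most widely.

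Members varied more between replicates than most genes. The median residual SD of the 33 was 0.498 on the log2 scale against 0.399 over all genes, and 27 of the 33 exceeded the latter. After FADS2 the most variable were SCD (0.950), TM7SF2 (0.882) and INSIG1 (0.822), and the steadiest after SCAP were ACLY (0.272) and ACACA (0.285), which supply and carboxylate acetyl-CoA.

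The wider pathway was read from 3 lists of non-members. Of 20 tested other sterol genes (of 21 listed), none passed in any line (2, 0, 2 and 3 at an unadjusted p under 0.05 for U87MG, T98G, U251MG and DBTRG-05MG, where 11.5%, 11.6%, 11.5% and 7.63% of all genes were), with medians of log2FC of 0.20, −0.13, 0.07 and −0.14 in that order. Of 23 tested genes of fatty acid elongation, activation and glycerolipid synthesis (of 24), 2 passed, both in U87MG, where 3.24% of all genes did. ELOVL7, an elongase of long-chain fatty acids, rose from 5.11, 2.78 and 2.32 CPM to 12.5, 7.13 and 6.86 CPM (log2FC 1.23 ± 0.33, adjusted p = 0.0416). This call stood under 16 of 37 alternatives and was lost, among others, with edgeR (0.0973) and without U87MG “Vec” replicate 3 (0.272). ACSL5, an acyl-CoA synthetase, fell from 2.06, 1.70 and 1.05 CPM to 0.306, 0.136 and 0.508 CPM (log2FC −1.43 ± 0.30, adjusted p = 0.00525). Its value in “WWOX” replicate 2 was under the limit of 3 tags in that library (0.204 CPM), and those in replicates 1 and 3 were near their limits (0.184 and 0.254 CPM). The ACSL5 call was lost with a separate model for the line (0.0957) and with the replicate block (0.0502). Of 8 tested LXR genes (of 9), which include the receptors and further targets, none passed (2, 2, 0 and 1 at an unadjusted p under 0.05, beside the same shares of all genes), with medians of −0.06, −0.11, 0.06 and 0.04 in the same order of lines.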

How the data were processed

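The authors sequenced CAGE libraries of 75 nt reads, aligned them to hg38 with STAR, counted tags with SAMtools in R, and deposited CPM, which sum to 1000000 per library. Every deposited value was a whole number of tags (100% of values, tolerance 0.001), so tags were recovered. Strand and overlap rules of the counting are not given in the sources used here. Columns of samples not used numbered 0. In R 4.3.3, CPM were scaled by TMM (edgeR 4.0.16), 0.5 was added, and log2 values were fitted with limma 3.58.1 for genes that reached 5 CPM in 1 library or more (trend, 8 groups, 24 libraries, 16 residual degrees of freedom). Each log2FC is on that scale, which understates the change of low genes. Two-sided p-values were adjusted over 12327 genes (Benjamini-Hochberg), and 0.05 was the threshold. The median SE was 0.321 for a line. The filter and the “WWOX” versus “Vec” contrast of each line follow the study, whose limma-voom fit on resampled counts was not repeated. The mean of the lines and the response and level contrasts were added here. Members and lists were chosen with earlier results of these data known. Genes given library by library were those past the threshold in a line or in the mean, the 2 largest separated rises and falls per line, the 6 widest “Vec” ranges, and the SREBP control genes. Alternatives were the pseudocount, filter, scaling, a model per line, a replicate block, edgeR, limma-voom, DESeq2 1.42.0 and leaving out libraries, and 2 pairs of libraries left out together were chosen after seeing the data. Each pair leaves 1 library in its group, so no p-value is given for these settings. The procedure was tested on simulated data. The values of 1 gene of the other sterol list are not reported here. GENCODE 44 gave positions. Python 3.11.15, pandas 2.3.3 and matplotlib 3.10.9 were also used.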

Additional observations from a re-analysis of the deposited data

Results flagged for a closer look

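The response of U87MG to WWOX differed from the mean of the other 3 lines for MVD by 1.85 ± 0.46 on the log2 scale (limma adjusted p = 0.0310), with all 3 “WWOX” libraries of U87MG above all 3 “Vec” libraries. This call was lost with the replicate block, with edgeR, and without U87MG “Vec” replicate 2 or 3 or “WWOX” replicate 2 or 3. The response of U87MG also differed for ACSL5, outside the members, by −1.46 ± 0.34 (adjusted p = 0.0209), with all 3 “WWOX” libraries of U87MG below all 3 “Vec” libraries. The “WWOX” values of ACSL5 in U87MG were only 0.306, 0.136 and 0.508 CPM, the second of them under the limit of 3 tags. The ACSL5 call was lost with the replicate block and without U87MG “Vec” replicate 1 or 2 or “WWOX” replicate 1 or 2.

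For 3 members every library moved one way in a line and the opposite way in another, and the differences between those lines were not tested. Of all genes, 8.18% were separated and higher in U87MG and 7.17% in T98G. Those separated and lower were 4.75% in U251MG and 10% in DBTRG-05MG. The share separated in opposite directions in 2 lines is not given here, so the count of 3 cannot be set against it. HMGCS1 was higher in U87MG and lower in U251MG, a difference of log2FC of 2.35. SQLE did the same, with a difference of 0.97. SREBF2 was higher in T98G and lower in U251MG and DBTRG-05MG, with differences of 1.49 and 1.41, at levels of at most 9.51 CPM. It was tested only because T98G “WWOX” replicate 3 reached 5 CPM, so these 2 differences cannot be read as a result. Without scaling, the libraries of HMGCS1 and SQLE in U251MG and of SREBF2 in T98G and DBTRG-05MG overlapped.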

How the results depend on the processing

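The count of members called in U87MG was 2, and 0 with a separate model per line or with the replicate block. In T98G it was 1, and 0 with a separate model per line, which has fewer libraries behind its spread. For the response of U87MG the count was 1, and 0 with the replicate block or edgeR (1.58% of all genes). It was 3 with DESeq2 (HMGCS1, MVD and TM7SF2, beside 2.81% of all genes). For the response of T98G it was 0, and 1 (ABCA1) with a pseudocount of 0.1 or DESeq2 (2.77% of all genes). Shares of all genes called with a separate model per line, the block or that pseudocount are not given here. Whether the counts under those settings are particular to the members cannot be read. The labels do not say whether same-numbered libraries were handled together. The correlation of deviations of same-numbered “Vec” and “WWOX” libraries ran from −0.546 in DBTRG-05MG to 0.510 in T98G. For replicates 1 to 3 it was 0.342, 0.213 and −0.147 in U87MG and 0.428, 0.510 and −0.365 in T98G. In U251MG it was 0.083, −0.316 and −0.404, and in DBTRG-05MG −0.528, −0.546 and −0.241. With the block, the adjusted p was 0.0589 for HMGCS1 and 0.0875 for MVD in U87MG and 0.0140 for ABCA1 in T98G. The cause was not tested.

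With single libraries left out, the counts ran from 0 to 2 in U87MG, 0 to 1 in T98G, 0 to 3 in U251MG, and 0 to 2 for the mean of the 4 lines. They ran from 0 to 2 for the response of U87MG and 0 to 1 for that of T98G. For levels they ran from 3 to 9 in U251MG and 9 to 18 in DBTRG-05MG. The 3 members called in U251MG without “WWOX” replicate 2 were ABCA1, FASN and INSIG2. Shares of all genes called with a library left out are not given here, so these counts cannot be set against them. The mean of the 4 lines lost ABCA1 without DBTRG-05MG “WWOX” replicate 2, T98G “WWOX” replicate 3 or U87MG “Vec” replicate 3, gained FADS2 (lower) without the latter, and gained ACLY (lower) without U87MG “Vec” replicate 1 or U251MG “WWOX” replicate 2.

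Changes near 0 turned sign. For MVD in T98G the log2FC was 0.019 with a mean filter, 0.019 with median of ratios scaling, 0.008 with edgeR, 0.027 with DESeq2, 0.16 without T98G “WWOX” replicates 2 and 3, and between −0.17 and 0.22 without single libraries. For HMGCS1 it was 0.021 in DBTRG-05MG with CPM as deposited. Without single libraries HMGCS1 ran from −0.22 to 0.12 in DBTRG-05MG and from −0.019 to 1.07 in T98G, MVD from −0.30 to 0.057 and ABCA1 from −0.12 to 0.19 in DBTRG-05MG. The log2FC values of HMGCS1 and MVD in U87MG and of ABCA1 in T98G kept their sign under all 37 alternatives, as did ELOVL7 in U87MG. SREBF2, MYLIP, and ABCG1 in U87MG rest on few tags, and whether depth limited them was not tested.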
